A study of Mus musculus with 11 samples.

Results

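The genes described here are 10 genes known as transcriptional targets of the tumour suppressor p53 that act in growth arrest, stress control or apoptosis: Cdkn1a, Mdm2, Bax, Bbc3, Pmaip1, Ccng1, Phlda3, Trp53inp1, Eda2r and Sesn1. They were chosen by name, with earlier results of these data known. They are 10 of the 55487 genes listed for each heart, and were all measured in every heart. RNA-seq was performed on single hearts of E14.5 mouse embryos, 5 from Pde2A-/- embryos (KO, replicates A, B, 14, D and 15) and 6 from Pde2A+/+ embryos (WT, replicates 7, 11, 6, 8, H and E). Embryos of both genotypes came from crosses of Pde2A+/- mice of the strain B6; 129P2-Pde2A<tm1Dgen>, and the mutation is present in every cell of the embryo, not in the heart alone. Pde2A is a phosphodiesterase that degrades cAMP and cGMP.

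p53, encoded by Trp53, is a transcription factor held at a low level by Mdm2, an E3 ubiquitin ligase that is itself a p53 target. When DNA damage or other stress stabilises it, p53 binds its response elements and raises genes that stop the cell cycle, such as Cdkn1a (p21), and genes that open the mitochondrial route to apoptosis, such as Bax, Bbc3 (Puma) and Pmaip1 (Noxa). Several of these genes also answer to other factors, hypoxia and growth signals among them.

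Each value below is in CPM, sense-strand counts scaled to a common library size by edgeR's TMM; gene totals ran from 35865537 to 42835382 reads a heart. Testing kept 24177 genes, those with 10 or more counts in all. It used the quasi-likelihood test of edgeR, with p-values adjusted after Benjamini and Hochberg, and genes under an adjusted p of 0.05 are said to be called. In all, 14.6% of the genes tested were called, 8.93% higher and 5.67% lower in KO, and among the 14024 genes that averaged 1 CPM or more 13.7% were called higher and 9.03% lower. Pde2a itself had at most 2 counts in any heart and could not serve to check the labels. On the same strand, 64.3% of its exon bases are shared with Gm45837, and reads on both are in neither count. The Pde2a counts are therefore no measure of its expression. Some libraries stood apart. WT replicate 7 held thymocyte RNA (the sum of 4 markers was 42.7 CPM, against at most 0.287 CPM in the others), WT replicates 7 and 11 held squamous genes (Trp63 at 12.5 and 3.34 CPM, against at most 0.611 CPM), and Alb, a liver gene, was over 1 CPM in KO replicate D and in WT replicates 11, H and E. The cardiomyocyte markers summed to between 28669 and 37288 CPM in KO and between 27820 and 37141 CPM in WT hearts.

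Of the 10 genes, 3 were called higher in Pde2A-/- hearts, or 30% beside 13.7% of all genes at 1 CPM or more. These were Cdkn1a by 1.55-fold, Eda2r by 1.37-fold and Mdm2 by 1.12-fold. None of the 10 was called lower by edgeR or by DESeq2. At an unadjusted p under 0.05, edgeR had 5 higher and 1 lower. None reached a fold change of 2, which 2.59% of all genes tested did together with the adjusted p. The median log2 fold change of the 10 genes was 0.17, beside -0.02 over all genes tested, and 9 of the 10 had a positive value. In 1 of the 10, Mdm2, every KO heart lay above every WT heart, a pattern that 5.38% of all genes tested and 8.16% of those at 1 CPM or more showed. In RNA from whole hearts, a higher level per cell and a larger share of cells that express a gene cannot be told apart.

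**Figure D1:**
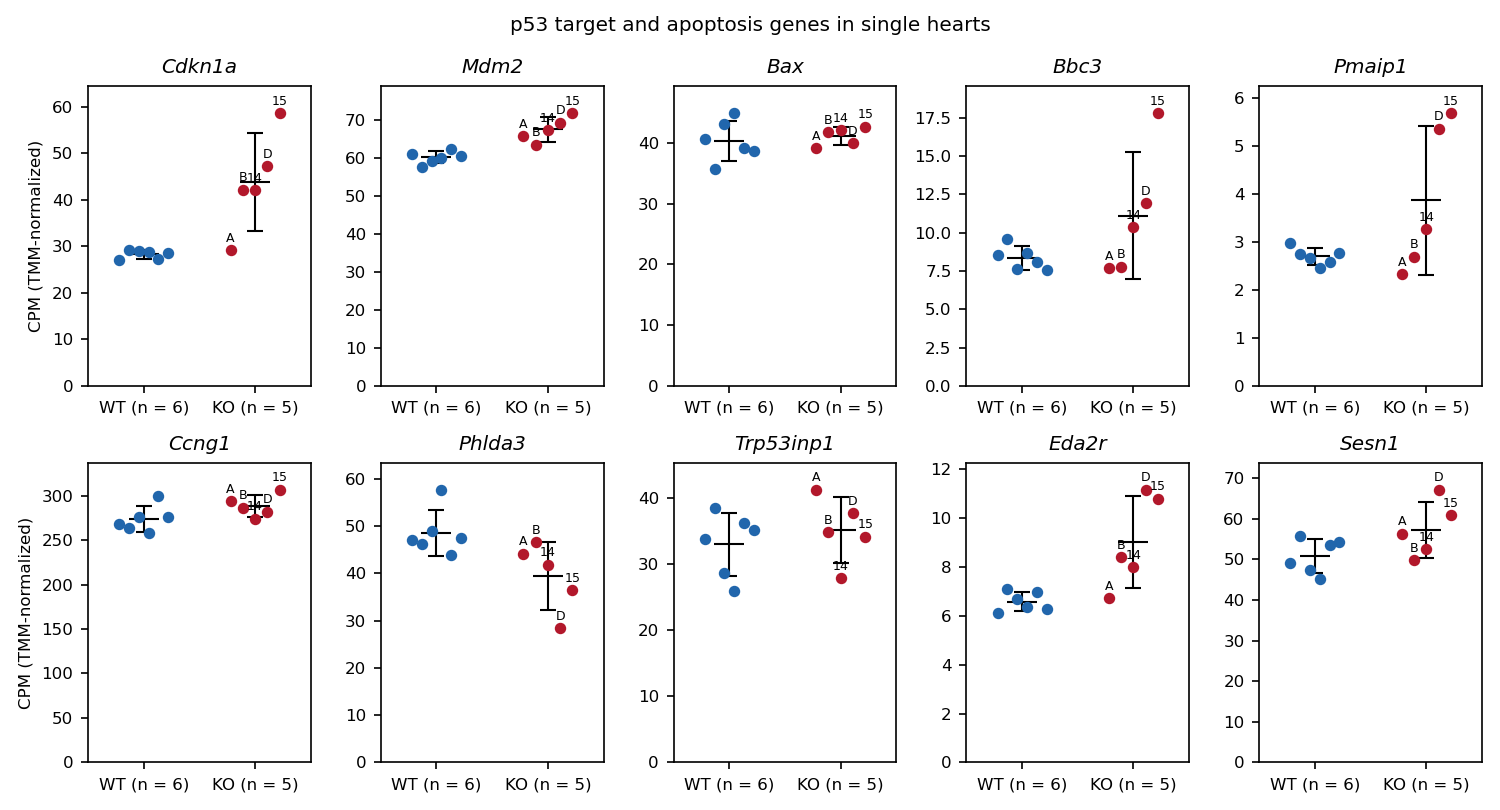
TMM-normalized CPM (y axis, from 0) of each of the 10 genes in the 6 WT hearts (blue) and the 5 KO hearts (red, with the replicate name); each point is 1 heart, the horizontal mark is the mean and the bar the SD. Mdm2 is the gene whose groups do not overlap, and KO replicates D and 15 lie above all WT hearts in Cdkn1a, Bbc3, Pmaip1, Eda2r and Sesn1.

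Cdkn1a (ENSMUSG00000023067, chromosome 17 from 29090976 to 29100727, plus strand, GRCm38) encodes p21, an inhibitor of cyclin-dependent kinases. Its level was 29.2 CPM in KO replicate A, 42.2 in B, 42.2 in 14, 47.2 in D and 58.6 in 15, while the WT hearts ran from 27.0 over a median of 28.6 to 29.3 CPM. KO replicate A lay within the WT hearts, and the other 4 KO hearts lay above all of them. The means were 43.9 ± 10.6 CPM (SD, n = 5) in KO and 28.3 ± 0.951 CPM (SD, n = 6) in WT, a log2 fold change of 0.63 ± 0.13 (SE) with a Benjamini-Hochberg adjusted p of 0.0067 by edgeR's quasi-likelihood test. The call held in all 11 fits that left out a heart, at log2 fold changes from 0.51 to 0.75. It was lost when all hearts with Trp63 or Alb above 1 CPM were left out, which kept 4 KO and 2 WT hearts (log2 fold change 0.59, adjusted p = 0.27, edgeR).

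The promoters of the 10 genes were read for the p53 response element, since Cdkn1a was the gene with the largest change among them. The RefSeq windows hold 250 bases before and 50 after a start site (GRCm38.p6); 8 of the 10 genes matched, with 12 windows between them. Each was searched for the 10-base consensus p53 element that reads the same on both strands, with no mismatch allowed. By this rule, 2 copies with at most 13 bases between them make a full response element. Elements with a mismatch, or outside these windows, were not searched for, so a window without a match does not show that a gene lacks one. A full element stood in 24 of 32851 windows (0.0731%), and among the 10 genes in Cdkn1a alone, at the upstream of its 2 start sites. There the copies lie 12 bases apart, the first beginning 73 bases and the second 51 bases before the start. In Cdkn1a the 10 bases right after the second copy differ from the consensus in their first base and were not counted. At least 1 copy stood in 8.36% of all windows and in 5 of the 12 windows here, those of Bax, Mdm2, Ccng1, Cdkn1a and the downstream start of Sesn1. The 250 bases before the Cdkn1a start, and 50 bases around the single copy in the other 4 genes, are shown 5′ to 3′ on the strand of the gene, with each copy in capitals, to set the promoter with a full element beside those with a single copy. A match to the consensus is a description of the letters and was not tested as a binding site.
Cdkn1a, chr17:29090729-29090978, plus strand: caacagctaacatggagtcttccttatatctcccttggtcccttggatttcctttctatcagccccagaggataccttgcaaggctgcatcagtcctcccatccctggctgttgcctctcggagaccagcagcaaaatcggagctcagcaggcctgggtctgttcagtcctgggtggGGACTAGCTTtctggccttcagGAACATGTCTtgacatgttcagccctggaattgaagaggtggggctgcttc
Mdm2, chr10:117710915-117710964, minus strand: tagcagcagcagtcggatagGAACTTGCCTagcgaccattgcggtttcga
Bax, chr7:45467070-45467119, minus strand: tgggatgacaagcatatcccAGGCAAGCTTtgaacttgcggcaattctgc
Ccng1, chr11:40755442-40755491, minus strand: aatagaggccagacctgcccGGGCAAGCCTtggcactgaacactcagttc
Sesn1, chr10:41887246-41887295, plus strand: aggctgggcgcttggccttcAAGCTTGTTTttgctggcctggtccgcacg

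Of these 5 genes, Cdkn1a and Mdm2 were called higher, and Bax, Ccng1 and Sesn1 were not called. Eda2r, called higher, had no copy in its window. Over the whole table, 20 genes had a window with a full element and 9 of them were tested. By edgeR, Cdkn1a was the 1 gene of the 9 called higher and 0 were called lower. At an unadjusted p under 0.05, Gm15496 and Dnajc7 were lower in KO, with adjusted p-values of 0.053 and 0.059 (edgeR). With so few genes, a full element in these windows and a change between the genotypes cannot be related.

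Mdm2 (ENSMUSG00000020184, chromosome 10 from 117688875 to 117710758, minus strand) encodes the ligase that marks p53 for degradation. It stood at 65.7, 63.5, 67.4, 69.3 and 71.8 CPM in KO replicates A, B, 14, D and 15, and from 57.7 over a median of 60.3 to 62.3 CPM in WT hearts. The genotypes did not overlap, and the lowest KO heart, replicate B, lay just above the highest WT heart, replicate H. The means of 67.5 ± 3.20 CPM (SD, n = 5) and 60.2 ± 1.59 CPM (SD, n = 6) gave a log2 fold change of 0.17 ± 0.04 (SE, adjusted p = 0.022, edgeR's quasi-likelihood test). The call was lost without KO replicate 14, D or 15 (adjusted p = 0.054, 0.062 and 0.052, edgeR). Without WT replicates 7 and 11, which held squamous genes, the adjusted p was 0.078 (edgeR) at a log2 fold change of 0.15. Mdm4, which binds and inhibits p53 beside Mdm2, had 73.2 ± 1.13 CPM in KO and 70.4 ± 3.26 CPM in WT hearts (adjusted p = 0.40, edgeR).

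Ccng1 and Sesn1 are targets that act in growth control. Ccng1 encodes cyclin G1, a partner of the phosphatase PP2A, and Sesn1 encodes a sestrin, which limits oxidative stress and mTORC1 signalling. Ccng1 had the highest level per kilobase of exon of the 10 genes, 79.9 CPM per kb over the 11 hearts, and its level ran from 274 to 307 CPM in KO and from 258 to 299 CPM in WT hearts. Its log2 fold change was 0.08 ± 0.05 (SE, adjusted p = 0.30, edgeR). Sesn1 was at 56.3, 49.9, 52.5, 67.1 and 60.8 CPM in KO replicates A, B, 14, D and 15, and from 45.1 over 51.4 to 55.7 CPM in WT. Replicates A, D and 15 lay above all WT hearts and the others did not, with a log2 fold change of 0.17 ± 0.08 (SE, adjusted p = 0.17, edgeR). Sesn1 thus had about the fold change of Mdm2 with a larger spread between hearts.

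Of the 10 genes, those of the mitochondrial route to apoptosis, Bax, Bbc3 and Pmaip1, were not called. Bax encodes the pore-forming member of the BCL2 family; it was at 41.1 ± 1.51 CPM (SD, n = 5) in KO and 40.4 ± 3.28 CPM (SD, n = 6) in WT hearts, a log2 fold change of 0.03 ± 0.06 (SE, adjusted p = 0.81, edgeR). All KO hearts, from 39.1 to 42.7 CPM, lay within the WT range of 35.8 to 44.9 CPM. Its sign was not stable, and without WT replicate 11 the log2 fold change was -0.01. On the same strand, 12.2% of its exon bases are shared with Gm45808, and reads on both are in neither count.

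Bbc3 and Pmaip1 encode Puma and Noxa, small BH3-only proteins that neutralise the anti-apoptotic BCL2 proteins. Bbc3 was at 7.70, 7.79, 10.4, 11.9 and 17.8 CPM in KO replicates A, B, 14, D and 15, and from 7.56 over 8.31 to 9.59 CPM in WT hearts. Replicates A and B lay within the WT range, and replicates 14, D and 15 lay above it. Its log2 fold change was 0.41 ± 0.19 (SE, adjusted p = 0.15, edgeR) and was 0.18 without KO replicate 15.

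Pmaip1, the gene with the lowest level per kilobase of the 10 at 1.18 CPM per kb, followed the same order of hearts. This rise from A over B, 14 and D to 15 stood in 7.27% of all genes at 1 CPM or more. Pmaip1 itself was as follows. It stood at 2.32, 2.69, 3.26, 5.36 and 5.68 CPM in KO replicates A, B, 14, D and 15, beside 2.46 over 2.70 to 2.97 CPM in WT. Replicate A lay below every WT heart, replicate B among them and replicate 14 above them, and replicates D and 15 were at 199% and 210% of the WT mean. The log2 fold change was 0.52 ± 0.22 (SE, adjusted p = 0.12, edgeR), and the gene was called when KO replicate A was left out (adjusted p = 0.030). Pmaip1 also had the fewest reads of the 10 genes, from 89 to 206 in a heart.

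Eda2r, Trp53inp1 and Phlda3 act outside the BCL2 family. Eda2r (ENSMUSG00000034457, chromosome X from 97333840 to 97377216, minus strand) encodes a receptor of the TNF receptor family that binds the ectodysplasin isoform EDA-A2. Its level was 6.73, 8.40, 7.99, 11.2 and 10.8 CPM in KO replicates A, B, 14, D and 15, and from 6.13 over 6.53 to 7.09 CPM in WT hearts. As with Cdkn1a, replicate A lay within the WT hearts and the other 4 KO hearts above them. The log2 fold change was 0.45 ± 0.12 (SE, adjusted p = 0.028, edgeR); the call was lost when KO replicate D or 15, or WT replicate 7, 6, 8 or E, was left out, with adjusted p-values between 0.051 and 0.083 at log2 fold changes from 0.37 to 0.46. By Xist and 4 Y-linked genes, KO replicates A and 14 and WT replicate 8 were female, and with embryo sex as a term Eda2r had a log2 fold change of 0.50 (adjusted p = 0.010, edgeR).

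Trp53inp1 encodes a stress protein that promotes p53 activity. It ran from 27.9 to 41.3 CPM in KO and from 26.0 to 38.5 CPM in WT hearts, and the ranges overlapped; KO replicate A lay above all WT hearts and WT replicate 8 below all KO hearts. Its log2 fold change was 0.09 ± 0.11 (SE, adjusted p = 0.64, edgeR).

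Phlda3 encodes a pleckstrin homology protein that restrains Akt, and was the gene of the 10 with a negative value. It was at 44.2, 46.6, 41.9, 28.5 and 36.5 CPM in KO replicates A, B, 14, D and 15, and from 43.9 over 47.2 to 57.7 CPM in WT hearts. Replicates 14, D and 15 lay below all WT hearts, with D at 58.7% of the WT mean, while A and B lay within them. The log2 fold change was -0.30 ± 0.11 (SE, adjusted p = 0.090, edgeR); it passed the threshold with embryo sex as a term (-0.35, adjusted p = 0.032) and without KO replicate B (-0.36, adjusted p = 0.042).

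The coefficient of variation was larger in Pde2A-/- than in Pde2A+/+ hearts in 7 of the 10 genes. This share, 70%, is near the 62.4% of all genes at 1 CPM or more. It was 24.2% in KO and 3.36% in WT hearts for Cdkn1a and 37.3% and 9.16% for Bbc3. For Pmaip1 it was 40.2% and 6.52%, and for Eda2r 21.1% and 5.93%. The differences were smaller for Mdm2 (4.74% and 2.64%), Phlda3 (18.25% and 9.89%) and Sesn1 (12% and 8.35%). For Bax the coefficient of variation was smaller in KO, 3.68% beside 8.12%, and Ccng1 and Trp53inp1 also varied less in KO. KO replicates D and 15 were the 2 highest KO hearts in 6 of the 10 genes (Cdkn1a, Mdm2, Bbc3, Pmaip1, Eda2r and Sesn1) and the 2 lowest in Phlda3. This order of hearts was noticed after the values were seen, and it was common: D and 15 were the 2 highest in 22.1% of all genes at 1 CPM or more and in 50.6% of those called higher. Macrophage markers ran in the same order, their 6 genes summing to 129, 139, 156, 163 and 165 CPM in KO replicates A, B, 14, D and 15 beside 63.0 to 100 CPM in WT hearts; all 6 were called higher. The 4 fibroblast markers summed to 2107, 2123, 2962, 4080 and 3211 CPM in the same KO hearts and to between 1771 and 4069 CPM in WT hearts, with 2 called higher, and of the 5 endothelial markers, which summed to between 999 and 1087 CPM in KO and between 827 and 984 CPM in WT hearts, 2 were called higher. Of the 6 cardiomyocyte markers, 1 was called higher. The shares called higher were 100% of macrophage, 50% of fibroblast, 40% of endothelial and 16.7% of cardiomyocyte markers. Over all genes at 1 CPM or more, the share was 13.7%. The part of these cells in the values of the 10 genes was not tested.

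**Figure D2:**
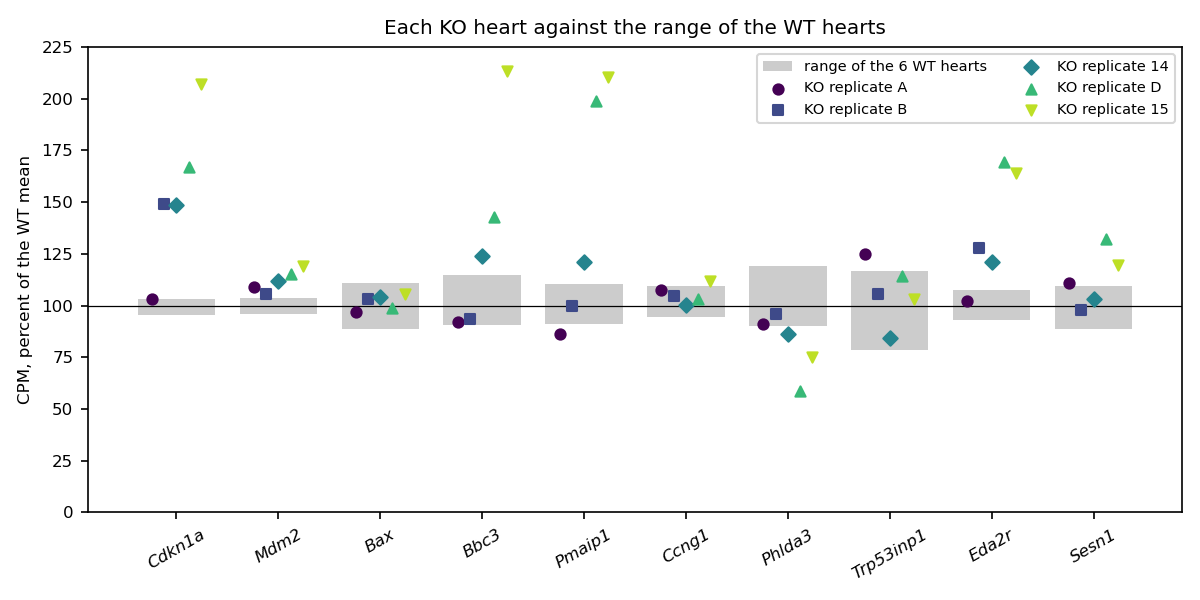
CPM of each of the 10 genes in each KO heart as a percentage of the WT mean (y axis, from 0; line at 100%), with 1 symbol per KO replicate and the range of the 6 WT hearts as a grey band. Replicate 15 reached 207% in Cdkn1a, 213% in Bbc3 and 210% in Pmaip1, while replicate A was at 103%, 92.2% and 86.2%; in Phlda3 replicates 14, D and 15 lay below the band.

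Trp53 itself was not called. It was at 70.6 ± 5.10 CPM (SD, n = 5) in KO and 70.7 ± 3.74 CPM (SD, n = 6) in WT hearts, a log2 fold change of 0.00 ± 0.06 (SE, adjusted p = 0.998, edgeR). Of the 14 genes listed as p53 and its regulators, 2 were called higher and 1 lower, with a median log2 fold change of 0.02. The shares, 14.3% and 7.14%, were near the 13.7% and 9.03% of all genes at 1 CPM or more. Hipk2, a kinase that phosphorylates p53, had 57.7 ± 2.04 CPM in KO and 45.1 ± 3.13 CPM in WT (log2 fold change 0.35 ± 0.05, adjusted p = 0.00096, edgeR), and Chek2, the DNA damage kinase CHK2, had 15.1 ± 1.13 beside 11.7 ± 0.606 CPM (0.37 ± 0.07, adjusted p = 0.0031, edgeR). The genotypes did not overlap in either, with KO above WT as in 8.16% of genes at 1 CPM or more. Chek1, the replication stress kinase CHK1, was lower, at 27.2 ± 4.34 beside 33.3 ± 1.94 CPM (-0.29 ± 0.09, adjusted p = 0.046, edgeR), and its call was kept in 3 of the 11 fits with a heart left out. Usp7, a deubiquitinase of Mdm2 and p53 and the gene of this list with the highest level per kilobase, was not called (adjusted p = 0.21, edgeR).

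Other p53 targets that act in arrest and DNA repair gave 6 of 14 genes called higher and 0 lower (median log2 fold change 0.02). The 6 are 42.9% of this list, beside 13.7% of all genes at 1 CPM or more. At an unadjusted p under 0.05 edgeR had 4 lower, and DESeq2 called 4 lower. Gadd45a, which acts in growth arrest and DNA repair, rose most. It was at 11.1, 20.9, 16.4, 17.8 and 20.8 CPM in KO replicates A, B, 14, D and 15, and from 4.20 over 4.93 to 5.52 CPM in WT hearts. Every KO heart, replicate A included, was above every WT heart, as in 8.16% of genes at 1 CPM or more. The log2 fold change was 1.83 ± 0.14 (SE, adjusted p = 6.8e-06, edgeR). Polk, a translesion DNA polymerase, rose by 1.65-fold (adjusted p = 0.0054, edgeR). Btg2, an antiproliferative gene, rose by 1.35-fold (adjusted p = 0.0055, edgeR) and Plk2, a polo-like kinase, by 1.30-fold (adjusted p = 0.019, edgeR). The call of Plk2 was lost without KO replicate D (adjusted p = 0.056, edgeR). Those of Gadd45a, Polk and Btg2 were kept in all 11 fits with a heart left out. Xpc and Ercc5, of nucleotide excision repair and named after their values were seen, made up the 6. Their fold changes were 1.11 and 1.15 (adjusted p = 0.044 and 0.047, edgeR).

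Among 12 targets in metabolism and stress, 3 were called higher and 1 lower, with a median log2 fold change of 0.12. The shares were 25% and 8.33%, beside 13.7% and 9.03% of all genes at 1 CPM or more. Ephx1, the microsomal epoxide hydrolase, was at 7.33, 10.5, 11.7, 15.8 and 17.7 CPM in KO replicates A, B, 14, D and 15, and from 5.83 to 8.84 CPM in WT hearts (1.75-fold, adjusted p = 0.016, edgeR). Its KO hearts had the order of Bbc3 and Pmaip1, as did 25.4% of the genes called higher at 1 CPM or more. Gdf15, a secreted stress factor of the TGF-beta family, rose by 1.74-fold from a low level of 1.17 ± 0.274 CPM (adjusted p = 0.017, edgeR), and Ddit4, an inhibitor of mTORC1 that also answers to hypoxia, rose by 1.61-fold (adjusted p = 0.019, edgeR). Without KO replicate D, all 3 missed the threshold, with adjusted p-values of 0.051 for Ephx1, 0.051 for Gdf15 and 0.061 for Ddit4 (edgeR). Ddit4 also missed it without KO replicate 15. Rps27l, a ribosomal protein gene named after its values were seen, was 1.18-fold lower (adjusted p = 0.035, edgeR). Ak1, the adenylate kinase with the highest level per kilobase of this list, was not called (adjusted p = 0.098, edgeR).

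The p53 targets in cell death moved both ways: of 8 genes, 2 were called higher and 4 lower, and the median log2 fold change was -0.15. That is 25% and 50%, beside 13.7% and 9.03% of all genes at 1 CPM or more. Tnfrsf10b, the TRAIL receptor, rose from 9.28 ± 0.491 CPM in WT to 13.1 ± 2.43 CPM in KO hearts (log2 fold change 0.49 ± 0.11, adjusted p = 0.011, edgeR). Apaf1, the scaffold of the apoptosome, also rose, by 1.18-fold (adjusted p = 0.015, edgeR). Aen, an apoptosis-enhancing nuclease, was lower, at 17.5 ± 5.12 beside 25.0 ± 2.46 CPM (log2 fold change -0.51 ± 0.16, adjusted p = 0.047, edgeR), as was Perp, a desmosomal membrane protein, at 119 ± 5.97 beside 145 ± 18.2 CPM (log2 fold change -0.29 ± 0.08, adjusted p = 0.028, edgeR). The call of Aen was kept in 2 and that of Perp in 6 of the 11 fits with a heart left out. Ei24 and Siva1, further p53-inducible death genes, were lower by 1.21-fold and 1.17-fold; like Apaf1 they were named after their values were seen.

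**Figure D3:**
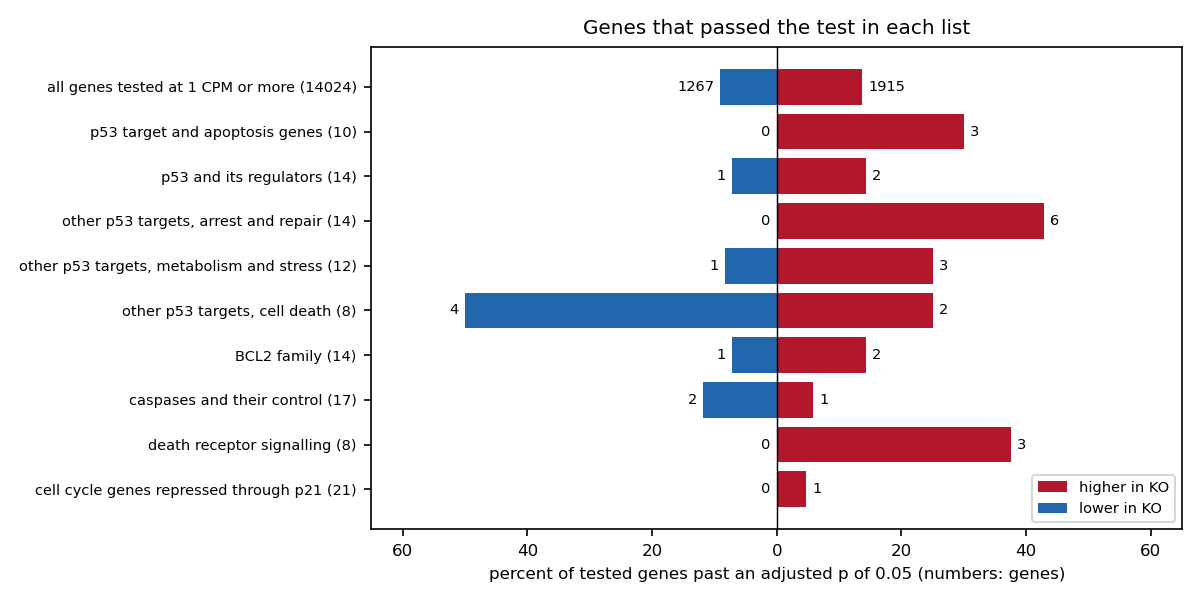
Share of the tested genes of each list that passed an adjusted p of 0.05 (x axis, percent; red to the right, higher in KO; blue to the left, lower), with the number of genes at the end of each bar and the number tested in brackets; the top bar gives all genes at 1 CPM or more. The list of arrest and repair targets has 6 genes higher and 0 lower, and that of cell death targets 2 higher and 4 lower.

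In the BCL2 family beyond Bax, Bbc3 and Pmaip1, 14 of 15 listed genes were tested. Of these, 2 were called higher and 1 lower, and the median log2 fold change was 0.09. The shares, 14.3% and 7.14%, were near the 13.7% and 9.03% of all genes at 1 CPM or more. Bnip3, a mitochondrial receptor for mitophagy known for its response to hypoxia, was at 115, 175, 307, 310 and 457 CPM in KO replicates A, B, 14, D and 15, and from 95.9 over 115 to 124 CPM in WT hearts. Replicate A lay within the WT range and replicate 15 was highest, and the log2 fold change was 1.29 ± 0.26 (SE, adjusted p = 0.0074, edgeR). The main product of Bcl2l1, a gene abundant in erythroid cells, is anti-apoptotic BCL-xL. Bcl2l1 rose from 48.0 ± 3.21 to 60.3 ± 3.37 CPM (0.33 ± 0.06, adjusted p = 0.0023, edgeR), with no overlap of the genotypes, as in 8.16% of genes at 1 CPM or more. Beside it, the erythroid markers Klf1, Slc4a1, Hemgn and Epb42 were called higher, and Hba-a1, Hbb-bs and Alas2, at log2 fold changes of -0.51, -0.51 and -0.60, were not called, while the summed level of the erythroid list, set mostly by globin genes, ran from 2537 to 4405 CPM in KO and from 2082 to 8646 CPM in WT; their part in the Bcl2l1 value was not tested. Bok, a pro-apoptotic member, was lower at 24.5 ± 3.39 beside 33.4 ± 4.39 CPM (-0.44 ± 0.11, adjusted p = 0.016, edgeR). Every KO heart lay below every WT heart, as in 3.11% of all genes tested and in 668 of the 14024 at 1 CPM or more.

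Of 17 caspases and their controllers, 1 was called higher and 2 lower, with a median log2 fold change of -0.10. That is 5.88% and 11.8%, beside 13.7% and 9.03% of all genes at 1 CPM or more. Casp6, an effector caspase, was 1.17-fold higher (adjusted p = 0.048, edgeR), and Cycs, cytochrome c of the respiratory chain and of the apoptosome, was 1.32-fold lower, at 61.1 ± 8.51 beside 80.8 ± 6.51 CPM (adjusted p = 0.010, edgeR). Aifm1, the apoptosis-inducing factor, was 1.11-fold lower (adjusted p = 0.049, edgeR). The share of reads on mitochondrial genes ran from 1.94% to 3.21% in KO and from 3.11% to 3.60% in WT hearts. The calls of Casp6 and of Aifm1 were each kept in 2 of the 11 fits with a heart left out, and that of Cycs in all 11. Parp1, the caspase substrate with the highest level per kilobase of this list, had an adjusted p of 0.058.

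Death receptor signalling had 3 of 8 genes called higher and 0 lower (edgeR), with a median log2 fold change of 0.26. The 3 are 37.5% of this list, beside 13.7% of all genes at 1 CPM or more. At an unadjusted p under 0.05, 1 gene was lower (edgeR), and DESeq2 called 1 lower. Mlkl, the effector of necroptosis, was at 4.38, 7.62, 7.04, 4.52 and 7.58 CPM in KO replicates A, B, 14, D and 15 and from 2.27 to 3.70 CPM in WT hearts. All KO hearts lay above the WT hearts, as in 8.16% of genes at 1 CPM or more (2.11-fold, adjusted p = 0.0022, edgeR). Here replicates D and 15 were not the highest pair. Ripk3, the kinase that acts on Mlkl, rose by 1.30-fold (adjusted p = 0.012, edgeR) and Tnfrsf1a, the TNF receptor and the gene of this list with the highest level per kilobase, by 1.30-fold (adjusted p = 0.0044, edgeR).

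Genes of the cell cycle that are repressed through p21 were listed last. Of 21, 1 was called higher and 0 lower by edgeR, with a median log2 fold change of -0.09. That is 4.76% higher, beside 13.7% higher and 9.03% lower of all genes at 1 CPM or more. In the list, 4 were lower at an unadjusted p under 0.05 (edgeR), and DESeq2 called 2 lower. The gene called higher was Mki67, the proliferation antigen Ki-67, at 526 ± 56.2 CPM in KO and 380 ± 14.4 CPM in WT hearts. It had a log2 fold change of 0.47 ± 0.06 (adjusted p = 0.00048, edgeR). Its groups did not overlap, as in 8.16% of genes at 1 CPM or more. Ccna2, cyclin A2, which had the highest level per kilobase of this list, was at 282 ± 10.3 and 295 ± 17.8 CPM (adjusted p = 0.42, edgeR). Over the 8 lists, 20 of 108 tested genes were called higher and 9 lower, with a median log2 fold change of -0.03. The shares were 18.5% and 8.33%, beside 13.7% and 9.03% of all genes at 1 CPM or more.

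**Figure D4:**
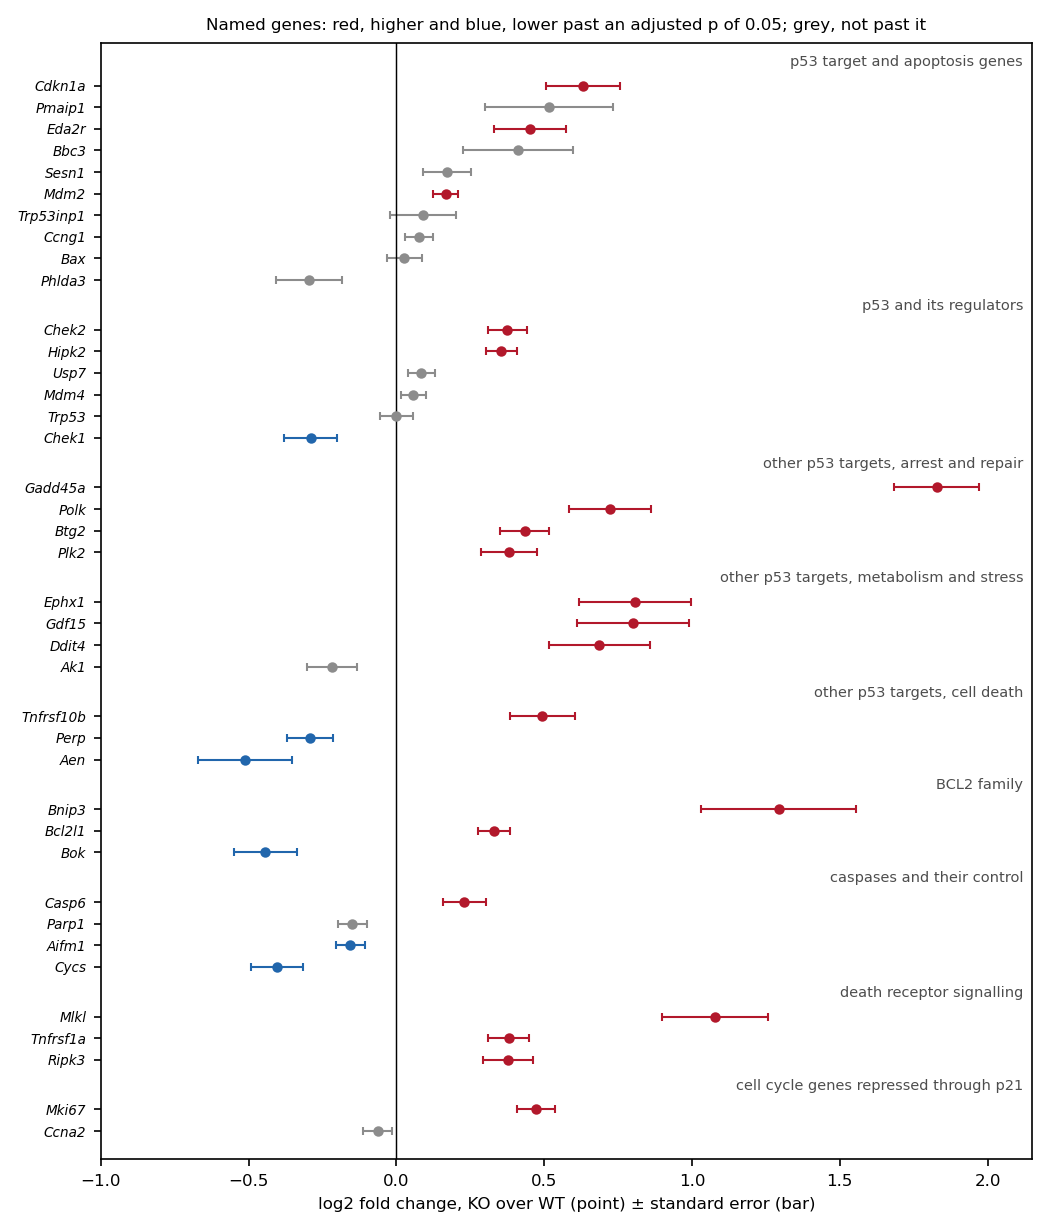
Log2 fold change of KO over WT (x axis, point) with its standard error (bar) for the genes named by rule, grouped by list; red, called higher; blue, called lower; grey, not called. Gadd45a at 1.83 and Bnip3 at 1.29 lie farthest to the right, Cdkn1a at 0.63 leads the 10 p53 target and apoptosis genes, and Trp53 lies at 0.00.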

How the data were processed

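RNA of 11 single embryonic hearts was sequenced from stranded poly(A) libraries, single-end. The authors mapped the reads with STAR (GRCm38/mm10 per the submitters' processing notes; versions and the annotation behind the counts are not given in the sources used here) and deposited whole-number counts per gene, unnormalized, for both strands together and for each strand. A read on more than 1 gene is in no count. The sense counts were used here (totals in the report); 19.6% to 22.4% of reads per heart were not counted on a gene and were left out. Counts on the other strand were at most 1.36% of the sense counts for the 10 genes. Gene positions came from GENCODE M21.

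Genes with at least 10 counts over all hearts were tested with edgeR 4.0.16 (R 4.3.3; TMM, glmQLFit, glmQLFTest, 1 factor); p-values were adjusted over all 24177 genes. The code was tested on simulated data. Tables were made with pandas 2.3.3 and plots with matplotlib 3.10.9, under Python 3.11.15. The totals per heart did not pass a test for genotype (exact permutation test, two-sided, p = 0.87). Each heart is 1 embryo and a replicate; litters are not stated.

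The 10 genes and the lists were chosen with earlier results of these data known. The genes named are Pde2a, the 10 genes, Trp53, Mdm4 and, per list, the 3 called genes with the largest absolute log2 fold change and the gene with the highest level per kilobase. Alternatives were DESeq2 1.42.0, DESeq2 size factors, filterByExpr, no filter, omission of globin genes, counts from both strands, naming style or embryo sex as a term, other fold thresholds, each heart left out, and, chosen after seeing the data, hearts with Trp63, or with Trp63 or Alb, above 1 CPM left out. The result of 1 marker gene is not reported here.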

Additional observations from a re-analysis of the deposited data

Results flagged for a closer look

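For the named genes, 78 groups of 5 or 6 hearts were examined (39 genes in both genotypes). Of these, 2 held a heart far from the others by Dixon's criterion, which chance flags in about 1 of 20 groups. Phlda3 was at 57.7 CPM in WT replicate 8, beside 43.9 to 49.0 CPM in the other 5 WT hearts; without this heart its log2 fold change was -0.24 in place of -0.30. Bcl2l1 was at 66.0 CPM in KO replicate B, beside 57.1 to 59.6 CPM in the other 4 KO hearts.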

How the results depend on the processing

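No paired analysis was possible because the genotypes share no replicate name. Of the 10 genes, Cdkn1a was called in 20 of 21 alternatives, Mdm2 in 16 and Eda2r in 13; Bbc3, Bax, Ccng1, Sesn1 and Trp53inp1 were called in 0 (edgeR and DESeq2; smallest adjusted p 0.052, for Bbc3). With 1 heart left out in turn, 1 to 4 of the 10 genes were called higher and 0 to 1 lower (1 higher without KO replicate D or 15); 13 to 24 pathway genes were called higher (13 without KO replicate D) and 3 to 17 lower, against 9 with all hearts; over all genes 1288 to 2887 were called higher and 414 to 2165 lower. The lowest counts of lower calls came without KO replicate 14, D or 15 or WT replicate 7 or 6 (3 pathway genes each), then WT replicate 8 or H (5 each), and the highest without KO replicate A or B (16 and 17). A fold change of at least 1.5 left 1 of the 10 genes higher, 7 pathway genes higher and 0 lower, and 981 genes higher and 215 lower; a fold of 2 left 0, 3, 0, 535 and 90. DESeq2 called 19 pathway genes and 2084 genes lower, and filterByExpr 18 pathway genes lower. With embryo sex as a term, 1 of the 10 genes was called lower (Phlda3). Without WT replicates 7 and 11, 1 of the 10 genes was called higher, and 5 pathway genes and 744 genes lower. When hearts with Alb above 1 CPM were left out too, 4 KO and 2 WT hearts remained, with 0 of the 10 genes, 3 pathway genes and 353 genes called higher and 0 pathway genes and 29 genes lower; fewer hearts entered this fit. Cdkn1a then had a log2 fold change of 0.59 (adjusted p = 0.27, edgeR).

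The sign of Bax turned without WT replicate 11 (-0.0058), without WT replicates 7 and 11 (-0.015) and without hearts with Trp63 or Alb (-0.076); with 1 heart left out it ran from -0.0058 to 0.064. Trp53, just below 0, turned positive with no filter (0.0048), counts of both strands (0.0044), omission of globin genes (0.0028), naming style as a term (0.012), without hearts with Trp63 (0.027) or with Trp63 or Alb (0.021), and in 5 of the 11 fits with a heart left out, whose values ran from -0.026 to 0.035; none was called. The causes were not tested. Pmaip1, at 89 to 206 reads per heart, is the gene most limited by depth.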
